A study of Mus musculus with 4 samples.

Results

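The regions described are 4571 open chromatin peaks in mouse haematopoietic stem and progenitor nuclei that lie at the starts of genes known by a provisional name only. A peak was included when it lay within 1 kb of the start interval of at least 1 gene whose symbol is Gm followed by digits or ends in Rik, and within 1 kb of no other gene. These were 2.62% of the 174339 peaks in the table. They are called Gm and Rik start peaks here, and 2922 of them carried a Gm name and 1649 a Rik name as the nearest gene. They lay at 3041 nearest genes, 685 of which had more than 1 such peak, so neighbouring peaks can share a gene. Of the other peaks, 30736 lay within 1 kb of the starts of other genes alone, 1963 near starts of both kinds and 137069 near no gene start.

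The nuclei came from Lin-cKit+ bone marrow cells, the fraction that lacks the surface markers of mature blood cells and carries the stem cell factor receptor Kit. Male C57BL/6 mice aged 8 weeks either had silk ligatures tied around molars on both sides for 14 days (Lig), which induces periodontitis, or were left without ligatures for the same time (Ctrl). Cells of 5 mice were pooled in each group, and RNA and open chromatin were read from the same nuclei, so each group is 1 sample for each readout and has no replicate. The table pools both groups, and its barcodes fall into 2 libraries that no label ties to Ctrl or Lig. The libraries are therefore called library 1 and library 2, are shown side by side, and give no comparison of Ctrl with Lig and no test.

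A Gm symbol is a provisional mouse gene name given to a gene model, and a Rik symbol derives from a full-length cDNA collection made at RIKEN. Many such genes are long non-coding RNAs, transcripts antisense to a known gene, or open reading frames with no assigned function. Assay for transposase-accessible chromatin reads where DNA is free enough of nucleosomes to be cut. Promoters rich in CpG dinucleotides are commonly open in most cell types, whereas enhancers and CpG-poor promoters are more often open in 1 lineage.

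To show what these regions look like, the central 200 bases of 6 peaks were read from GRCm38 on the forward strand. The first 5 are those with the largest difference in each of the 5 lineages with the most nuclei, and the last is the peak with the most counts. Capitals mark letters of the searched transcription factor motifs, on either strand, which are given further below. The windows lie at chr10:95634396-95634595, chr10:43746120-43746319, chr4:10745229-10745428, chr7:98563070-98563269, chr17:83956852-83957051 and chr17:39845921-39846120, in the order shown.
Gm47667: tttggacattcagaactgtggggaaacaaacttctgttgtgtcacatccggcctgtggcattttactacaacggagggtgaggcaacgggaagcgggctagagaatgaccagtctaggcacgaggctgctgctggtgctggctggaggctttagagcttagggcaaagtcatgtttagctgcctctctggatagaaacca
1700027J07Rik: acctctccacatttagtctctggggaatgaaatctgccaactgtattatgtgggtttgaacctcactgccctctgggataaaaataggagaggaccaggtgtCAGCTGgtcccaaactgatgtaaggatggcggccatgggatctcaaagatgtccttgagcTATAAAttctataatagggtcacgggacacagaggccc
1700123O12Rik: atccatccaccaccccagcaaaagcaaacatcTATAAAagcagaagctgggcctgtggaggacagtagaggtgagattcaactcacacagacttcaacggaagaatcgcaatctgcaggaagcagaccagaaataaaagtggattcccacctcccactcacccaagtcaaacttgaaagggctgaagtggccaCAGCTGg
A630091E08Rik: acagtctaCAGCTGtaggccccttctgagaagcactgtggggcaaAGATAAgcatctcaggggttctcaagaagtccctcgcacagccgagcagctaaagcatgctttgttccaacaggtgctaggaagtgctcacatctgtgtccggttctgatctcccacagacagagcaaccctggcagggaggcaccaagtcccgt
Gm35229: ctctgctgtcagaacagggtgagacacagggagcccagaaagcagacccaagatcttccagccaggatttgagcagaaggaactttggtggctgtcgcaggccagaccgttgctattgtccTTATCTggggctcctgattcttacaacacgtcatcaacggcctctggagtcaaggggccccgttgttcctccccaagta
Gm42418: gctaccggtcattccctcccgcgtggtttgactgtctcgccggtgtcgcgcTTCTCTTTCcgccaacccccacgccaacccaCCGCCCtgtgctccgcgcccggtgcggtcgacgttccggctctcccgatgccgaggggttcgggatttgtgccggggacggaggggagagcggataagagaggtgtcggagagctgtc
Gm47667 leads in the neutrophil lineage and shows none of the searched motifs in this window. 1700027J07Rik leads in the B lineage and holds an E protein motif and the letters of a TATA box. 1700123O12Rik, which leads in stem-like nuclei, holds the same pair. The middle of its peak lies 2425 bp from the nearest annotated start of the gene, so the TATAAA there is a match of letters only. A630091E08Rik leads in lymphoid-primed multipotent-like nuclei and holds an E protein and a GATA motif, and Gm35229 leads in erythroid-like nuclei and holds a GATA motif. The Gm42418 window lies in the copy of the ribosomal RNA repeat that the assembly places on chromosome 17, and it has the highest G and C content of the 6 windows at 67.5%.

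After keeping barcodes with 200 or more genes and 1000 to 50000 peak counts, 5905 nuclei of library 1 and 7714 of library 2 remained, with median peak counts of 19471 and 16284 and median RNA molecules (UMIs) of 1641 and 1516.5 per nucleus. The libraries shared 146 barcode sequences, 72 of them among kept nuclei. Nuclei were clustered on RNA and chromatin with the Gm and Rik genes and their start peaks left out, and 10 lineages were named from marker genes. The neutrophil lineage held 663 nuclei of library 1 and 1336 of library 2, and the B lineage held 1250 and 606. Mature cells should be few after the lineage-negative sort, and how far these shares depend on the gate was not tested. Each named cluster had 3 or more raised markers and at least 1 marker among its 10 leading genes by fold, and the raised markers were as few as 3 (Vwf, Itga2b and Pf4) in megakaryocyte-like nuclei. Clusters holding 41.8% of kept nuclei did not meet the marker rule, or, for 90 plasmacytoid dendritic-like nuclei, the floor of 50 nuclei in each library, and are left out of the lineages. Kit RNA, which the sort calls for, was seen in each lineage, from 551 and 398 UMIs, scaled to 1000000 outside the ribosomal repeat genes, in erythroid-like nuclei down to monocyte-like nuclei, where only 3 and 2 UMIs were counted. A doublet caller marked 3 nuclei in all, which is too few to have worked, so doublets were not removed.

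The word promoter fits these regions only in part. An annotated start of the gene itself lay inside the peak for 1903 of the 4571 peaks and within 1 kb outside it for 1676, while for 992 peaks the nearest annotated start was further away. The gap arises because the start interval in the table runs from the first to the last start of a gene. A long gene can thus own many peaks, the extreme being 2610307P16Rik with 67. In the GENCODE M21 models 2436 peaks overlapped an exon of their own gene, 1381 lay in an intron and 754 lay outside it. By gene type 2272 belonged to lincRNA genes, 984 to antisense genes, 717 to protein-coding genes, 475 to processed transcripts and 88 to sense intronic genes. Another gene's body covered 980 of them.

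Gm and Rik start peaks were less open than start peaks of other genes and more open than peaks away from starts. Their median level was 3.75 CPM per kb of peak, where CPM is the count scaled to 1000000 peak counts of the nuclei concerned. It was 6.59 at other genes and 2.45 away from starts. Counts were seen in a median of 2.90% of nuclei, against 5.06% and 1.96%. The level followed the distance to the annotated start, at 5.31 CPM per kb with a start inside the peak, 3.74 with a start within 1 kb and 2.32 beyond. The share of all peak counts was 3.26% in library 1 and 3.29% in library 2.

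In base composition they lay between the same sets. The median G and C content was 50.7%, against 54% at other genes and 48% away from starts. The observed over expected CpG ratio passed 0.6 in 14.4% of Gm and Rik start peaks, in 36.2% of other start peaks and in 3.06% of peaks away from starts. Within the Gm and Rik set, the ratio passed 0.6 in 30.3% of protein-coding members and in 10.4% of lincRNA members. Repeats covered more than 50% of 4.29% of the peaks.

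The most counts lay in repeated sequence. The Gm42418 peak held 199211 counts in library 1 and 251333 in library 2, and the Gm26917 peak beside it held 167412 and 199676. Both lie in the ribosomal RNA repeat unit, of which a genome has many near-identical copies, so counts cannot be placed on this copy. Next came a pair of peaks in a satellite-rich stretch of chromosome 2. Gm10800 held 35328 and 46261 counts with 97.8% of its bases masked as repeat, and Gm10801 held 16272 and 20772 with 67.0% masked. The fifth was 4932412D23Rik, a lincRNA inside the gene body of Zbtb20, with 14955 and 13460 counts and 8.10% repeat.

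A peak was called higher in a lineage when its CPM there was at least 2-fold that of the other kept nuclei in both libraries, among peaks with at least 20 expected counts in the lineage in each library. Of the 4571 peaks 3413 had enough counts in at least 1 lineage, and 388 of them (11.4%) were called in at least 1, against a background of 10.7% over all peaks. The share is close to that background, whose other peaks took part in the clustering while the Gm and Rik start peaks did not. It was 7.57% at starts of other genes, 3.62% at shared starts and 11.7% away from starts. Where an annotated start lay inside the peak the shares were 11% for Gm and Rik genes and 4.35% for other genes.

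Calls were fewer at CpG-rich peaks. At a CpG ratio above 0.6, 17 of 607 tested Gm and Rik start peaks were called (2.80%), beside 1.96% at other genes. At a ratio up to 0.6, 371 of 2806 were called (13.2%), beside 11.9% at other genes. The shares by gene type were 12.5% for lincRNA, 12.3% for antisense, 9.14% for protein-coding and 8.26% for processed transcripts. Of the 388 called peaks, 341 were called in 1 lineage (87.9%, all called peaks 90.3%), 43 in 2 (11.1%, all called peaks 8.82%), 2 in 3 and 2 in 4. Stem-like and lymphoid-primed multipotent-like nuclei shared 17 called peaks, which is 25% of the calls of each, beside 19.2% and 21.7% over all called peaks. The B lineage and the lymphoid-primed multipotent-like nuclei shared 16, which is 10.1% and 23.5% of their calls, beside 7.89% and 16.7%. Erythroid-like nuclei held 6 of the 9 megakaryocyte-like calls and 3 of the 4 basophil or mast-like calls, beside 42.5% and 41.3% over all called peaks.

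A peak was called even when it stayed within 2-fold of all kept nuclei in every lineage and library. Only 336 Gm and Rik start peaks had the counts for this, and 216 of them (64.3%) were even, against 75.2% over all peaks, 85.1% at other genes and 36.3% away from starts. Rik start peaks were even in 76.2% of 168 and Gm start peaks in 52.4% of 168. The most even by the ratio of the highest to the lowest lineage were 2310022B05Rik at 1.26, 6720427I07Rik at 1.26 and 4921524J17Rik at 1.27. The 2310022B05Rik peak covers the start of a protein-coding gene on chromosome 8, has 75.7% G and C, and ran from 20.8 to 25.9 CPM over the 10 lineages of library 1 and from 20.7 to 31.1 in library 2.

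Whether a ratio passes 2-fold depends on the counts behind it, so the sets were also compared at similar counts. Among peaks with 4000 or more but fewer than 8000 counts, 9.40% of Gm and Rik start peaks were called higher in some lineage, against 3.30% at other genes and 12.2% away from starts. With 8000 or more counts, 87.0% of them were even, against 96.3% and 69.1%. With 2000 or more but fewer than 4000 counts the shares called higher were 12.5%, 9.90% and 14.3%. With 1000 or more but fewer than 2000 they were 15.0%, 14.4% and 16.4%, so there the Gm and Rik start peaks stood nearer to other start peaks. Below 1000 counts they were 10.0%, 8.72% and 9.13%. The plot by count class shows the order of the sets in each class.

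**Figure D1:**
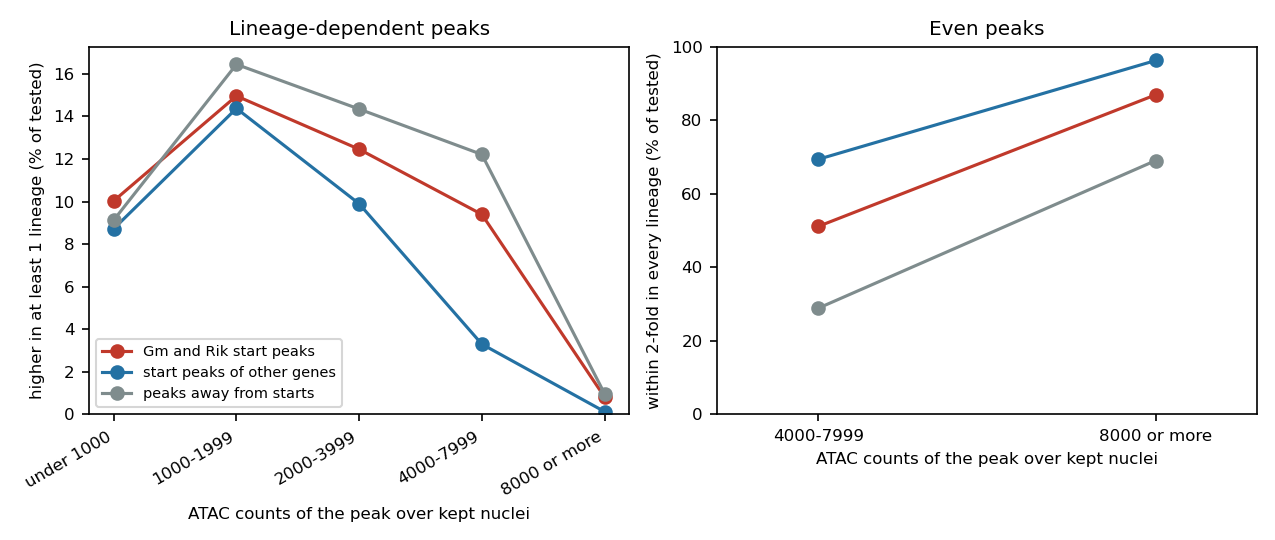
Percent of tested peaks called higher in at least 1 lineage, and percent of tested peaks that were even, by total counts of the peak over kept nuclei, for Gm and Rik start peaks, start peaks of other genes and peaks away from starts. From 1000 counts upward the Gm and Rik start peaks lie between the other sets in the share called higher, and from 4000 counts, where evenness could be read, they also lie between them in the share even.

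The B lineage held the most calls, 158 of 2642 tested (5.98%, all peaks 4.97%). The neutrophil lineage, which joins granulocyte-monocyte progenitor-like and neutrophil precursor-like nuclei, had 79 of 3412 (2.32%, all peaks 2.94%). Stem-like nuclei had 68 of 2858 (2.38%, all peaks 2.43%) and lymphoid-primed multipotent-like nuclei 68 of 2379 (2.86%, all peaks 2.68%). Erythroid-like nuclei had 39 of 1793 (2.18%, all peaks 1.86%). These shares lie near their backgrounds. With at least 100 expected counts the B lineage had 24 of 642, further above its background (3.74%, all peaks 1.80%). The counts depend on which nuclei carry a name. With coarser clusters (Louvain resolution 0.4) the neutrophil lineage was the 492 neutrophil precursor-like nuclei alone and had 19 calls of 895 tested (2.12%, all peaks 2.40%), and a stem-like cluster of 2293 nuclei had 126 of 3718 (3.39%, all peaks 3.56%), with no lymphoid-primed multipotent-like cluster named. In that clustering 6042 nuclei with 5 raised markers (Mpo, Elane, Ctsg, Prtn3 and Ms4a3), none among their 10 leading genes, went unnamed.

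The smaller lineages gave few calls. Megakaryocyte-like nuclei had 9 of 876 (1.03%, all peaks 1.13%), conventional dendritic-like nuclei 8 of 509 (1.57%, all peaks 0.9%) and monocyte-like nuclei 6 of 500 (1.2%, all peaks 0.829%). Basophil or mast-like nuclei had 4 of 963 (0.415%, all peaks 0.527%) and NK or T-like nuclei 2 of 336 (0.595%, all peaks 0.604%). A peak can reach 20 expected counts through the lineage in which it is high. When the expectation was taken from the nuclei outside the lineage, 316 of 3403 tested peaks (9.29%, all peaks 8.62%) were called in at least 1 lineage. The neutrophil lineage then had 54 calls (1.60%, all peaks 2.26%), the B lineage 129 (4.90%, all peaks 3.89%), stem-like nuclei 60 (2.09%, all peaks 2.03%), lymphoid-primed multipotent-like nuclei 62 (2.62%, all peaks 2.32%) and erythroid-like nuclei 35 (1.94%, all peaks 1.60%). Of the 20 peaks named below as leading a lineage, 7 had under 20 counts expected from the outside nuclei in at least 1 library and are no call on that measure. They are Gm47667, 4930438A08Rik, 1700027J07Rik, Gm10631, Gm35229, Gm28857 and Gm15889.

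**Figure D2:**
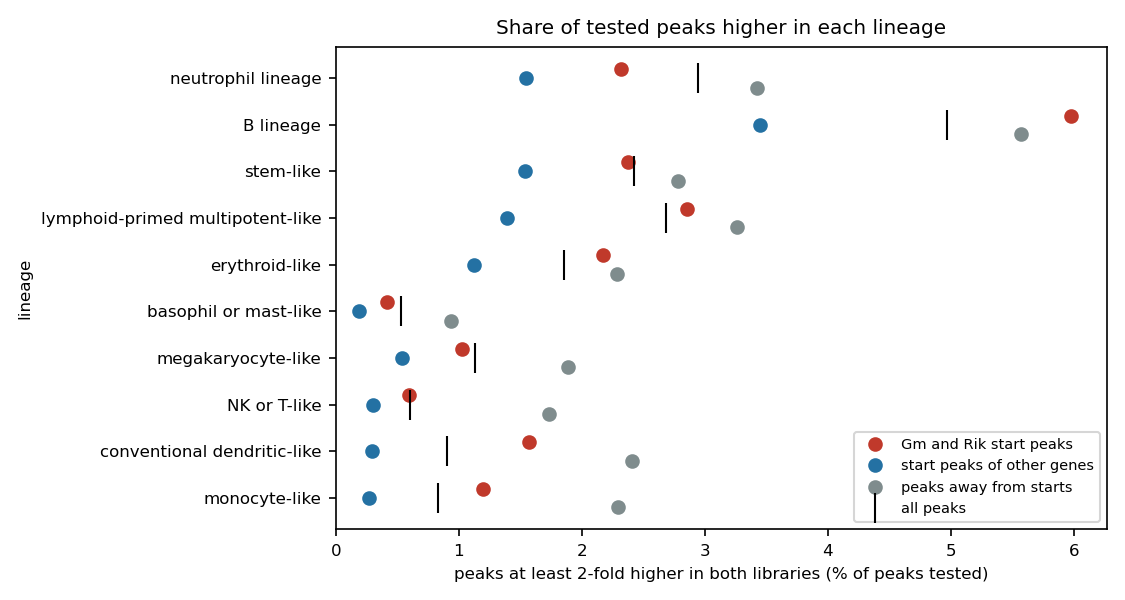
Percent of tested peaks called higher in each of 10 lineages for Gm and Rik start peaks, start peaks of other genes, peaks away from starts and all peaks. Gm and Rik start peaks lie above the start peaks of other genes in each lineage, with 5.98% against 3.45% in the B lineage and 2.32% against 1.55% in the neutrophil lineage, while all peaks lie at 4.97% and 2.94%.

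The widest gap belonged to 1700027J07Rik, a lincRNA gene on chromosome 10 whose start lies inside the peak. In the B lineage, which joins pro-B-like and mature B-like nuclei, it held 1614 counts in library 1 and 519 in library 2. This is 71.7 CPM (95% interval 66.8 to 76.8) and 62.6 CPM (55.3 to 70.8), where intervals are exact Poisson intervals and cover counting error only. All other kept nuclei held 104 and 83 counts, which makes the B lineage 66.0 and 90.9 times higher. No other named lineage passed 2.38 CPM in either library. The RNA of the same gene followed, with 374 of 399 UMIs of library 1 and 75 of 90 of library 2 in the B lineage, 60.6 and 71.1 times the level of the other nuclei. That gene had too few UMIs for the RNA call described below. With ATAC clusters alone, where a cluster of 612 nuclei with 10 B markers raised but none among its 10 leading genes went unnamed, the lower of the peak ratios was 13.2. The peak had enough counts for a call only through the B lineage, since the outside nuclei gave 24.5 and 5.71 expected counts there.

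**Figure D3:**
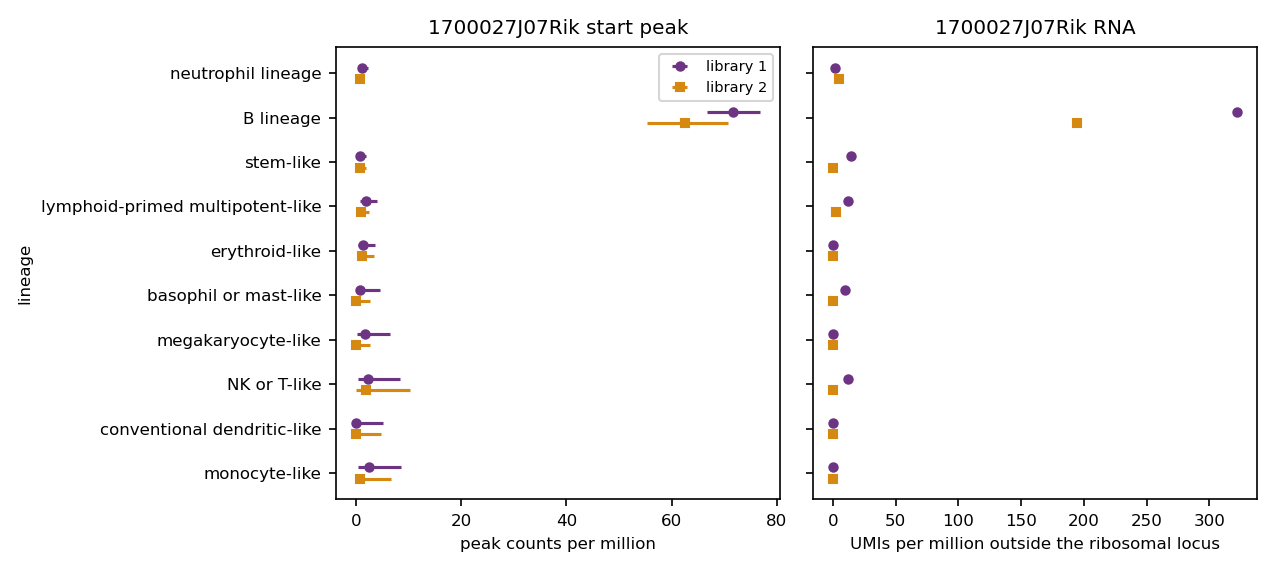
CPM at the 1700027J07Rik start peak with 95% Poisson intervals, and RNA of the gene, in 10 lineages and both libraries. The B lineage stands at 71.7 and 62.6 CPM, and the other lineages lie at or below 2.38 CPM. In library 2 the outside nuclei gave 5.71 expected counts in the B lineage, under the floor of 20.

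Next in the B lineage was Gm10631, an antisense gene within the body of Bean1, with 931 and 322 counts there. It reached 41.3 CPM (37.7 to 45.3) and 38.9 CPM (33.1 to 45.4), which is 28.3 and 33.9 times the other nuclei, with a lower ratio of 8.54 under ATAC clusters alone. It too had enough counts only through the B lineage, with 32.9 and 9.49 expected from the outside nuclei. The lymphoid-primed multipotent-like nuclei came next at 5.06 and 2.46 CPM. No UMI of Gm10631 was counted in either library, so its RNA was not detectable at this depth.

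In the neutrophil lineage Gm47667, a lincRNA gene on chromosome 10, held 130 counts in library 1 and 190 in library 2. Its 9.36 CPM (7.22 to 11.9) and 8.01 CPM (6.48 to 9.80) were 16.8 and 8.59 times those of the other nuclei. The lineage held 69.1% and 66.0% of the counts of that peak. The protein-coding 4930438A08Rik followed with 102 and 242 counts and ratios of 7.03 and 5.44. The B lineage held 6 and 0 counts of Gm47667. With at least 500 genes per nucleus the lower ratio was 3.49 for Gm47667 and 3.08 for 4930438A08Rik. Both had enough counts only through the neutrophil lineage, since in library 1 the outside nuclei gave 7.72 and 14.5 expected counts.

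In stem-like nuclei 1700123O12Rik held 150 and 163 counts, at 14.4 CPM (11.3 to 18.1) and 14.8 CPM (11.8 to 18.4). These were 5.67 and 5.63 times the other nuclei, and lymphoid-primed multipotent-like nuclei were close behind at 11.8 and 11.7 CPM, with intervals that overlap. The antisense Gm10640 had ratios of 4.04 and 4.33, at 20.7 and 22.4 CPM in stem-like nuclei. It was about as high in NK or T-like nuclei, at 21.5 and 24.7 CPM, and in basophil or mast-like nuclei, at 22.1 and 19.3.

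A630091E08Rik, a lincRNA gene on chromosome 7, led in the lymphoid-primed multipotent-like nuclei with 201 and 173 counts. It stood at 26.1 CPM (21.2 to 31.7) and 22.4 CPM (17.9 to 27.7), with the B lineage at 16.2 and 18.2 and stem-like nuclei at 14.1 and 14.4. The ratios to the other nuclei were 4.05 and 4.70. Neutrophil lineage and erythroid-like nuclei had 1.58 to 2.66 CPM. Gm45666, antisense within Aktip, had ratios of 4.02 and 4.88.

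Gm35229, a lincRNA gene on chromosome 17, led in erythroid-like nuclei with 139 and 118 counts, or 24.4 CPM (19.0 to 30.8) and 25.9 CPM (19.7 to 33.3). The ratios were 8.16 and 6.79. The outside nuclei gave 17.0 and 17.4 expected counts, under the floor of 20. Megakaryocyte-like nuclei came next at 17.7 and 11.2 CPM, and the B lineage had 0.933 and 2.05. The lincRNA 5730460C07Rik followed with ratios of 7.61 and 5.82, at 29.1 and 28.9 CPM in erythroid-like nuclei. Basophil or mast-like nuclei stood beside them at 24.1 and 30.4 CPM, with overlapping intervals.

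Basophil or mast-like nuclei were led by 4930519L02Rik with 76 and 93 counts and ratios of 2.7 and 2.54. They stood at 30.5 CPM (21.6 to 41.9) and 34.4 CPM (25.3 to 45.9), with erythroid-like nuclei at 23.0 (17.7 to 29.2) and 20.4 (14.9 to 27.1), so the intervals of these lineages overlap. With at least 500 genes per nucleus the lower ratio was 1.14, which is no call. Of its RNA, 24 of 90 and 19 of 46 UMIs came from basophil or mast-like nuclei, 19.5 and 36.5 times the level of the others. The gene had too few UMIs for the RNA call described below. Gm38708, whose peak lies 3658 bp from the start of Gata2, followed with 42.6 and 43.3 CPM in basophil or mast-like and 39.4 and 38.1 CPM in erythroid-like nuclei. Gata2 encodes a transcription factor of stem, mast and early erythroid cells.

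In megakaryocyte-like nuclei 2610035D17Rik had ratios of 3.62 and 4.47 from 93 and 133 counts, and Gm28857 of 2.98 and 5.19. RNA of 2610035D17Rik was too sparse there for the call described below, with 2 of 188 and 2 of 116 UMIs and ratios of 0.442 and 0.796. Gm28857 stood at 27.0 and 35.7 CPM there and at 40.5 and 31.6 in erythroid-like nuclei, so it was as much an erythroid-like peak. In NK or T-like nuclei Gm17767 had 3.23 and 3.86 from 147 and 87 counts, with the B lineage at 57.4 and 56.2 CPM against 85.2 and 79.7, and Gm34590 had 2.77 and 2.83. Conventional dendritic-like nuclei were led by Gm15889 at 3.17 and 3.40 from 63 and 68 counts and Gm11537 at 2.61 and 2.65. Monocyte-like nuclei were led by F630040K05Rik at 3.02 and 3.14 from 82 and 84 counts and Gm11613 at 3.11 and 2.52. The middles of the Gm17767 and F630040K05Rik peaks lay 11628 and 3877 bp from the nearest annotated start of their gene. With at least 500 genes per nucleus the megakaryocyte-like, NK or T-like, conventional dendritic-like and monocyte-like nuclei had no call. Only 418, 33, 7 and 5 Gm and Rik start peaks were tested there. Over all peaks the shares were 0.242% in megakaryocyte-like nuclei and 0% in the others. The ratios given next for that setting in conventional dendritic-like and monocyte-like nuclei thus rest on few counts. For 3 of the peaks named in these lineages the lower ratio also fell below 2-fold under other settings. The lower ratio of Gm11537 fell to 1.31 with ATAC clusters alone and to 1.51 with at least 500 genes per nucleus. With RNA clusters alone it was 1.74 for F630040K05Rik and 1.77 for Gm11613, and Gm11613 turned to 0.403 with at least 500 genes. These lineages had 76 to 122 nuclei in library 1 and 92 to 162 in library 2, so their ratios rest on fewer counts than those above.

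**Figure D4:**
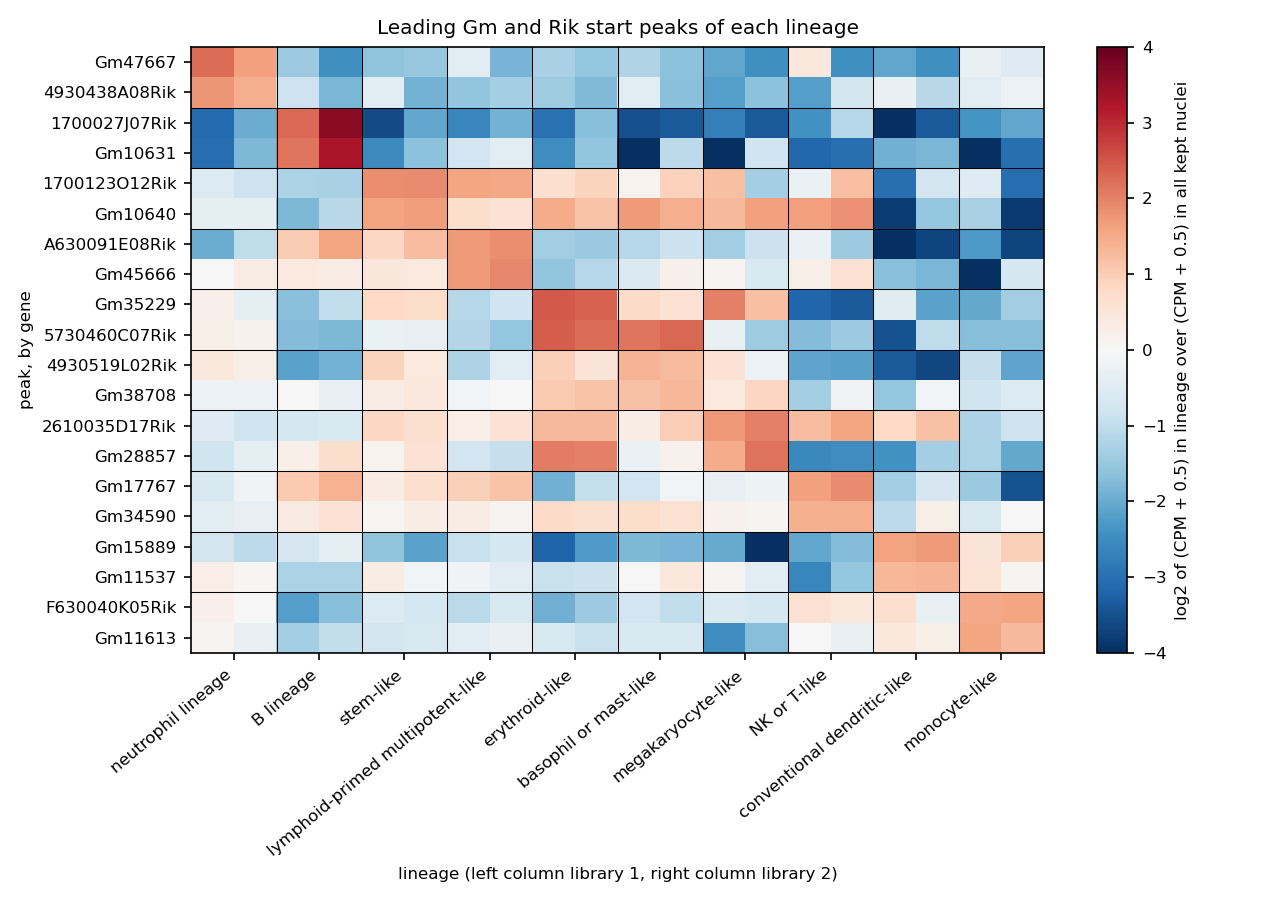
Log2 of (CPM + 0.5) in a lineage over (CPM + 0.5) in all kept nuclei for the 20 leading Gm and Rik start peaks, 2 for each of 10 lineages, with library 1 and library 2 side by side in each lineage. The peaks were chosen by their ratio in the lower library, so high values of both libraries in the lineage a peak leads follow from the choice. The other columns show where else a peak is open, such as Gm28857 of the megakaryocyte-like nuclei, at 40.5 and 31.6 CPM in erythroid-like nuclei.

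In the peaks called in a lineage, motifs of some blood transcription factors were more frequent than over the whole set of Gm and Rik start peaks. Motifs were searched on both strands in the central 300 bases. The letters searched were AGATAA for GATA factors, TGTGGTT for RUNX, GAGGAAGT for PU.1, CCGGAAGT for ETS, TTGCNNAA for CEBP and CCCNNGGG for EBF. For E proteins they were CAGCTG, for IRF GAAANNGAA, for SP and KLF factors GGGCGG, for NFY CCAAT and for NRF1 GCGCATGCG. For YY1 they were AAGATGGCG, for CREB TGACGTCA and for the box bound by the TATA-binding protein TATAAA. The PU.1 and ETS motifs share letters. A match is a description of the sequence and not of binding.

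The CEBP motif, named for a factor family of granulocytes, was in 34.2% of the 79 peaks called in the neutrophil lineage, against 12.9% of all Gm and Rik start peaks and 14.2% of all peaks. The EBF motif, named for an early B cell factor, was in 32.3% of the 158 B lineage peaks, against 12.1% and 10.4%. The E protein motif was in 41.8% of them, against 22.1% and 19.7%, and it was above the set in each of the other 4 lineages too, from 29.1% in the neutrophil lineage to 38.5% in erythroid-like nuclei. The GATA motif is named for factors of stem, erythroid and mast cells. It was in 33.3% of the 39 erythroid-like peaks and 23.5% of the 68 stem-like peaks, against 11.1% and 13.3%. It was also in 17.7% of the neutrophil lineage, 13.2% of the lymphoid-primed multipotent-like and 5.06% of the B lineage peaks. RUNX letters were in 23.5% of the stem-like, 19.1% of the lymphoid-primed multipotent-like and 17.9% of the erythroid-like peaks, against 10.4% and 12%. In the B lineage peaks they were in 13.9%, and in the neutrophil lineage peaks in 7.59%. Some of these peaks had enough counts only through the lineage in which they were high. Among those that had enough from the outside nuclei, CEBP was in 37.0% of 54 neutrophil lineage peaks, EBF in 29.5% and E protein in 39.5% of 129 B lineage peaks, GATA in 34.3% of 35 erythroid-like and 21.7% of 60 stem-like peaks, and RUNX in 23.3% of the latter and 19.4% of 62 lymphoid-primed multipotent-like peaks.

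Called peaks of all kinds held CEBP in 38.8% in the neutrophil lineage, and EBF in 25% and E protein in 39.2% in the B lineage. They held GATA in 38.6% in erythroid-like nuclei. RUNX was in 20.6% of them in stem-like and 24.8% in lymphoid-primed multipotent-like nuclei. Other shares lay further apart. The E protein motif was in 17.6% of all called peaks in the neutrophil lineage and 27.1% in erythroid-like nuclei, and EBF was in 20.6% of called Gm and Rik start peaks but 10.0% of all called peaks in lymphoid-primed multipotent-like nuclei. Over the whole set the widest gap to other start peaks was in the GC-rich SP and KLF motif. It was in 16.8% of Gm and Rik start peaks, in 35.0% of start peaks of other genes and in 7.82% of peaks away from starts.

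**Figure D5:**
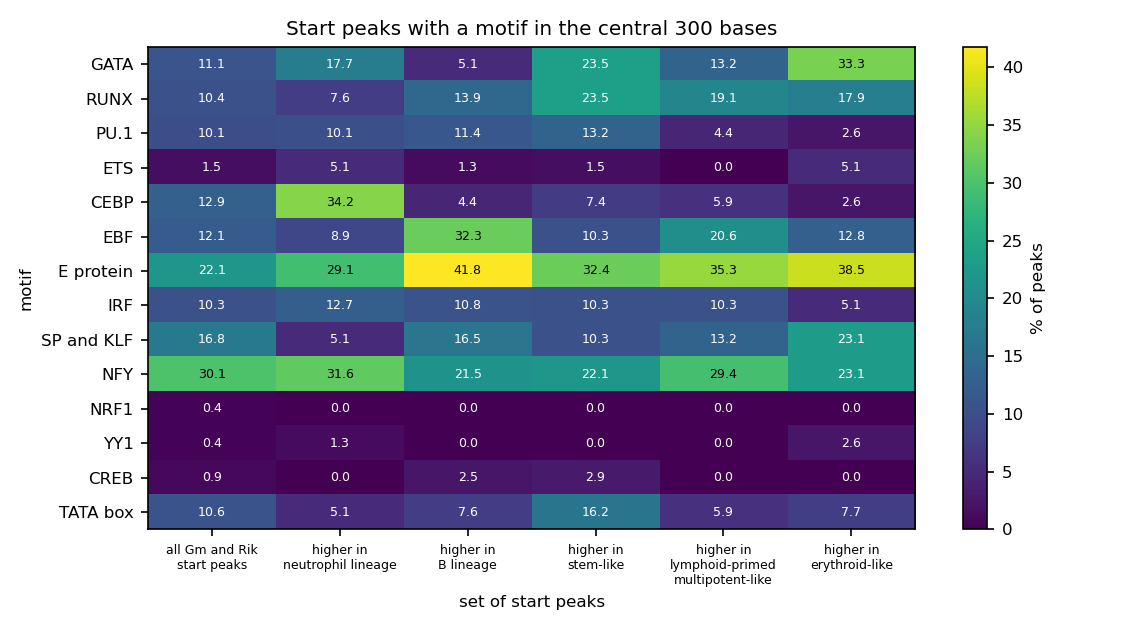
Percent of peaks with each searched motif in the central 300 bases, for all Gm and Rik start peaks and for those called higher in each of 5 lineages. CEBP stands at 34.2% in the neutrophil lineage, EBF at 32.3% in the B lineage and GATA at 33.3% in erythroid-like nuclei, against 12.9%, 12.1% and 11.1% over the set.

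Few called peaks had a called neighbour. For each Gm and Rik start peak the nearest other gene was taken, and its own start peaks were read in the same lineage. Unlike the Gm and Rik start peaks, the neighbours took part in the clustering. Where the Gm or Rik peak was called, the neighbour was also called in 19 of 337 peak and lineage pairs (5.64%), and where it was not called, in 355 of 11214 (3.17%). By distance the former were 3 of 47 up to 10 kb (6.38%), 11 of 200 from 10 to 100 kb (5.5%) and 5 of 90 beyond (5.56%). The latter shares were 3.34%, 3.07% and 3.27%, so the gap was much the same near and far. Pairs were pooled over lineages, and the part of the mix of lineages in the gap was not tested. Of these 19 pairs, 5 were picked for their neighbours after the values were seen. In the neutrophil lineage Gm11505 had ratios of 3.20 and 2.59, with a peak 5720 bp from the start of Mpo. Mpo encodes the granule enzyme myeloperoxidase, had ratios of 3.37 and 2.80, and is also a marker by which that lineage was named. In erythroid-like nuclei Gm38708 had 2.22 and 2.33 and Gata2 had 2.15 and 2.22.

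In the B lineage Gm32742 had ratios of 2.16 and 2.81 at 47454 bp from Pou2af1, a B cell coactivator whose start peak had ratios of 41.9 and 50. Gm47680 had 12.8 and 13.3 there, 22739 bp from the start of Ets1, and Gm27240 had 4.76 and 4.81 in the neutrophil lineage, 15726 bp from Ets1. The start peaks of Ets1, a lymphoid transcription factor gene, had 3.38 and 3.49 in the B lineage and 4.77 and 3.29 in the neutrophil lineage, each value being that of the most raised of its peaks. The same neighbour was thus paired with different Gm peaks in different lineages.

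Between the libraries few Gm and Rik start peaks differed by 2-fold in CPM over all kept nuclei. Of 4087 peaks with at least 100 counts in each library, 26 were higher in library 1 (0.636%, all peaks 0.677%) and 4 in library 2 (0.0979%, all peaks 0.106%). The lowest ratios of library 2 to library 1 were 0.294 at Gm43586, an immunoglobulin V pseudogene on chromosome 6, from 384 and 123 counts, and 0.322 at 1700027J07Rik. The B lineage, of which library 1 held 1250 nuclei and library 2 held 606, had 363 and 108 of the Gm43586 counts. The highest were 2.27 at 4930506C21Rik from 153 and 378 counts and 2.06 at 4931408C20Rik from 123 and 276. Of these, 73 and 211 counts of 4930506C21Rik and 10 and 86 of 4931408C20Rik came from the neutrophil lineage. That lineage held 663 and 1336 nuclei and 13888910 and 23707661 peak counts in all. When library ratios were averaged within lineages, 97 of 3412 differed by 2-fold (2.84%, all peaks 3.19%). The part of lineage shares in these ratios was not tested.

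RNA of the same genes was sparse outside a few. The 3119 genes within 1 kb of these peaks took 52.0% of all UMIs, but Gm42418 alone took 45.8%, Gm20594 took 5.11% and Gm26917 took 0.697%. Gm42418 and Gm26917 overlap the ribosomal RNA repeat, so their UMIs can come from ribosomal RNA. With 2610307P16Rik also set aside, the other 3115 genes together held 0.397%. At least 1 UMI was seen for 2398 of the 3119 genes and 100 or more for 149, and the median gene had 3 UMIs, against 37 for genes with other names. For most of these genes the data therefore describe open chromatin and say little of RNA.

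RNA was scaled to UMIs outside the ribosomal repeat genes and called higher at 2-fold in both libraries with at least 10 expected UMIs in each. Of 98 member genes with enough UMIs, 10 were called in at least 1 lineage, which is 10.2% beside 7.53% of all genes. Calls were 4 of 59 in the B lineage (205 of 5174 over all genes), 3 of 57 in lymphoid-primed multipotent-like (84 of 5143), 2 of 98 in neutrophil lineage (77 of 7299) and 2 of 65 in stem-like nuclei (94 of 5938), and the other 6 lineages had none with 7 to 31 genes tested. The genes named next were chosen after their values were seen. F630028O10Rik was called in the neutrophil lineage at 3.42 and 2.86 times the other nuclei, from 85 and 87 UMIs. Gm41335 was called in lymphoid-primed multipotent-like nuclei at 4.79 and 3.66, from 84 and 41 UMIs. Neither gene had a start peak called in the same lineage, with 1 tested for F630028O10Rik and 12 for Gm41335. The counting is not stated to use strand in the sources used here, so RNA of an antisense gene may hold reads of its partner.

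Chromatin and RNA were both called in the same lineage for 3 genes, and 12 of the 13 peak and lineage pairs came from 2610307P16Rik and 2900026A02Rik. Of 23 called peak and lineage pairs with RNA tested, 13 had RNA called (56.5%), beside 162 of 894 at other genes (18.1%), while RNA was called in 10.8% and 3.21% of all pairs. Pairs of 1 gene share its RNA, so the member share rests on these few genes. Read the other way, 13 of 92 pairs with RNA called had the peak called (14.1%), beside 162 of 1718 at other genes (9.43%). A Gm or Rik start peak was paired with its nearest gene. A start peak of other genes was paired with the first listed gene within 1 kb, so the shares are not measured quite alike. The RNA of 2610307P16Rik, a processed transcript spread over 67 peaks on chromosome 13, was 4.11 and 5.41 times higher in lymphoid-primed multipotent-like nuclei, from 894 and 301 UMIs. In the B lineage it was 2.26 and 3.15 times higher, from 1185 and 193 UMIs. Of its tested peaks, 2 of 22 were called in the former and 4 of 27 in the latter. Most of its peaks were not higher in the B lineage, where the median log2 ratio over the 27, taking the lower library, was -0.71. The third gene was 4930523C07Rik, with RNA at 2.86 and 2.49 in the B lineage and 1 of 5 tested peaks called.

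The protein-coding 2900026A02Rik, on chromosome 5, had 211 of 364 UMIs of library 1 and 62 of 189 of library 2 in the B lineage, 5.58 and 6.95 times the level of the other nuclei. Of its 20 tested peaks 6 were called there. At chr5:113151089-113151983, in an intron, the B lineage held 895 and 326 counts and ratios of 4.53 and 4.36. At chr5:113138243-113139132 it held 1083 and 348 counts and ratios of 3.77 and 3.38. The peaks at chr5:113136964-113137668 and chr5:113152669-113153393 had 2.58 and 2.30, and 2.30 and 2.71. Their lower ratios fell to 1.52 and 1.73 with ATAC clusters alone and to 1.20 and 1.41 with at least 500 genes per nucleus, which is no call. None of these 4 peaks holds an annotated start of the gene.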

How the data were processed

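Lin-cKit+ bone marrow nuclei were profiled by combined single-nucleus RNA and ATAC sequencing. The authors deposited 1 table of raw counts, UMIs per gene and counts per peak, which per the labels was made with Cell Ranger ARC 2.0.0 on GRCm38 (mm10). The submitters' processing notes also name Seurat 4.0.3 and Signac 1.3.0, which the methods of the study give for quality control and preprocessing. Library totals were 10294527 and 12537328 UMIs and 118239764 and 128699726 peak counts over kept nuclei. Of the nonzero peak entries 82.5% were even numbers, so Poisson intervals were computed on pairs of counts. Intervals cover counting error only.

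Peaks were assigned to genes by the start intervals in the deposited table. Gene types, exons and starts came from GENCODE M21, which matched 99.8% of gene rows, and sequence came from GRCm38. Nuclei were clustered in Seurat 5.3.0 (R 4.3.3) on 30 RNA components and LSI components 2 to 30, joined by weighted nearest neighbours with anchors between libraries and Louvain resolution 0.8. A cluster was named when at least 3 markers of a type were raised 2-fold with 10 or more UMIs and at least 1 was among its 10 genes of largest fold with 20 or more UMIs. The ratios, intervals and counts were computed in Python 3.11.15 with numpy 2.4.6, scipy 1.17.1 and pandas 2.3.3, figures in matplotlib 3.10.9, and Scrublet was run in scanpy 1.11.5. The computation of ratios and calls was tested on simulated peak counts with known changes, and the other steps were not.

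No test was run, since each group is 1 pooled sample and no label ties a library to a group. The members, lists and rules were chosen with earlier results of these data known. Peaks named were, in each lineage, the 2 with the largest ratio in the lower library, the 5 with the most counts, the 3 most even, the 2 largest and 2 smallest library ratios, and the 4 with the largest RNA ratio among peaks called in both readouts. Other clusterings, filters, thresholds, distances and scalings were tried, and 3 alternatives were added after seeing the data: expected counts from nuclei outside the lineage (also for the motif shares), leaving out barcode sequences found in both libraries, and RNA scaled without Gm20594.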

Additional observations from a re-analysis of the deposited data

Results flagged for a closer look

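Calls were also seen in nuclei outside the named lineages. In an unnamed cluster of 2836 nuclei with Csf1r and F13a1 raised, 40 Gm and Rik start peaks of 3997 tested were higher than in the other nuclei (1.0%, all peaks 1.45%). In an unnamed cluster of 1685 nuclei with Adgre1 raised, 28 of 3416 were higher (0.820%, all peaks 0.984%), led by A530021J07Rik with 88 and 164 counts and ratios of 2.82 and 2.78. In an unnamed cluster of 894 nuclei with Runx2 raised, 32 of 2810 were higher (1.14%, all peaks 1.36%), led by Gm1965 with 129 and 88 counts and ratios of 5.12 and 5.01. The nuclei outside that cluster held 258 and 208 Gm1965 counts, which gives under 20 expected in library 2. Gm1965 thus had enough counts there only through the cluster. Calls with the expectation from outside nuclei were not counted for these clusters. The calls are given because no named lineage includes these clusters, which above serve only as part of the nuclei that lineages are set against. Each share lies below that of all peaks in the same cluster.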

How the results depend on the processing

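Counts of calls moved with the clusters and with the depth asked for. The count in at least 1 lineage was 176 with pairs of counts (7.14%, all peaks 6.86%), 121 with at least 500 genes per nucleus (5.09%, all peaks 4.61%), 34 with at least 100 expected counts (3.10%, all peaks 2.23%), 128 at 3-fold (3.75%, all peaks 3.55%) and 631 in library 1 alone (18.5%, all peaks 18%). The sum over lineages was 192 with pairs of counts, 127 with 500 genes and 36 with 100 expected counts. These 3 settings test fewer peaks. In that order the B lineage had 82, 52 and 24 calls, the neutrophil lineage 31, 35 and 6, stem-like nuclei 32, 15 and 3, lymphoid-primed multipotent-like nuclei 28, 18 and 3, and erythroid-like nuclei 15, 7 and 0. Basophil or mast-like nuclei had 2, 0 and 0, conventional dendritic-like and monocyte-like nuclei 1, 0 and 0 each, and megakaryocyte-like and NK or T-like nuclei 0 in all 3. With pairs of counts these 5 lineages, in the order named, stood at 0.429%, 0.529%, 0.556%, 0% and 0% (all peaks 0.108%, 0.0763%, 0.0797%, 0.260% and 0.116%). With 500 genes only 101, 7, 5, 418 and 33 were tested, and all peaks stood at 0.242% in megakaryocyte-like nuclei and 0% in the others. With 100 expected counts 76, 13, 9, 68 and 5 were tested, with no call over all peaks. Even peaks numbered 94 of 104 (90.4%, all peaks 95.6%), 3 of 5 (60%, all peaks 78.3%) and 3 of 5 (60%, all peaks 84.3%). In these settings the neutrophil shares were 1.26%, 1.47% and 0.547% (all peaks 1.99%, 2.01% and 0.636%) and the B lineage shares 4.50%, 3.72% and 3.74% (all peaks 4.03%, 3.09% and 1.80%). The stem-like shares were 1.60%, 0.964% and 0.376% (all peaks 1.64%, 0.784% and 0.581%). The lymphoid-primed multipotent-like shares were 1.77%, 1.39% and 0.558% (all peaks 1.63%, 1.07% and 0.422%). The erythroid-like shares were 1.46%, 0.952% and 0% (all peaks 0.928%, 0.575% and 0.0630%).

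With Louvain resolution 0.4, stem-like nuclei had 126 calls (3.39%, all peaks 3.56%) and the neutrophil lineage 19 (2.12%, all peaks 2.40%). With RNA clusters alone, monocyte-like nuclei had 94 (2.16%, all peaks 3.10%), stem-like 131 (3.45%, all peaks 3.33%) and NK or T-like 1 (0.352%, all peaks 0.429%). With ATAC clusters alone, the B lineage had 93 (4.40%, all peaks 3.70%), conventional dendritic-like 56 (1.88%, all peaks 2.68%), erythroid-like 23 (1.38%, all peaks 1.35%), megakaryocyte-like 17 (1.59%, all peaks 1.46%) and monocyte-like 2 (0.855%, all peaks 0.317%). The same names cover different nuclei there: RNA clusters name 3663 nuclei monocyte-like instead of 184, and ATAC clusters name 1004 conventional dendritic-like instead of 186 and leave 612 with B markers unnamed. Peaks differing 2-fold between the libraries numbered 14 with pairs of counts (0.427%, all peaks 0.548%), 4 with at least 500 counts (0.227%, all peaks 0.192%) and 97 as a mean within lineages (2.84%, all peaks 3.19%). Member genes with RNA called numbered 3 of 42 with at least 30 expected UMIs (7.14%, all genes 4.25%) and 3 of 98 at 3-fold (3.06%, all genes 2.57%). Of 186 ratios of named peaks under other settings, 176 stayed at 2-fold or more, 41 of them with under 20 expected counts and so no call, 9 fell below 2-fold and 1 turned, Gm11613 in monocyte-like nuclei at 0.403 with at least 500 genes. Those below 2-fold were F630040K05Rik and Gm11613 with RNA clusters, Gm11537 and a pair of 2900026A02Rik peaks with ATAC clusters, and the latter 3 and 4930519L02Rik with at least 500 genes. In that last setting only 5 monocyte-like, 7 conventional dendritic-like and 101 basophil or mast-like peaks had 20 expected counts. The values of Gm11613, Gm11537 and 4930519L02Rik there thus rest on few counts. The other 105 counts stayed within 1.5 times. A similar count need not mean the same peaks. Among the 388 peaks called in at least 1 lineage, 269 were also among the 384 called at resolution 0.4. With RNA clusters alone 315 were among 523, and with ATAC clusters alone 253 were among 345. Without correction between libraries 352 were among 384, and without the top 8% of doublet scores 325 were among 359. No paired analysis was possible because each group is 1 sample and no result comes from a test. Depth limits the small lineages and nearly all RNA values.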
